A study of Mus musculus with 6 samples.

Results

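The 43 genes described here act in G2 and mitosis, the phases in which a cell prepares for division and divides. They were taken by symbol from a fixed list, and all 43 were found among the 53762 gene symbols of the count tables. RNA sequencing was done on immortalized fibroblasts from mouse embryos (MEFs), connective tissue cells that keep growing in culture. Of the 6 libraries, 3 were titled PME-1 wild-type (WT) and 3 PME-1 knockout (KO), all collected 24 hours after plating in high glucose medium. Genotype labels of some KO libraries carry other PME numbers, so the groups follow the titles. The labels name no agent, no clone and no separate cultures, so p-values measure only how these samples vary, which may be technical.

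PME-1, the product of Ppme1, is the methylesterase of PP2A, a protein phosphatase, and takes a methyl group off its catalytic subunit. PP2A opposes the kinases that drive mitosis: the kinase Cdk1 with its cyclins phosphorylates many proteins at mitotic entry, and PP2A with a B55 subunit removes those phosphates at exit. The Greatwall kinase, encoded by Mastl, holds PP2A-B55 in check during mitosis through the small proteins Arpp19 and Ensa. Transcripts of most mitotic genes build up in G2 and decline after division, so their bulk level follows how many cells are in those phases. Fewer cells in G2 and mitosis and less RNA per such cell cannot be told apart in bulk samples.

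Total counts ranged from 34450993 to 44116310 per library. Values are CPM (library-scaled counts, with TMM factors), given as mean ± SD with n = 3 per group. Ppme1 had 78.5, 80.7 and 86.6 CPM in WT 1 to 3, against 18.2, 14.9 and 18.9 CPM in KO 1 to 3. It fell 4.72-fold (edgeR log2 fold change -2.24, SE 0.13, adjusted p = 0.000563), so the targeted transcript went with the titles without being absent. Xist averaged 430.9 ± 60.2 CPM in WT against 0.229 ± 0.0998 in KO. The Y-linked Ddx3y had 0 counts in every WT library and 58.4 to 71.8 CPM in KO, so sex markers separate the libraries in the same way as genotype. Sex and the source of the cells therefore cannot be told apart from genotype in any comparison below. All 12 fibroblast markers were detected, with summed levels of 19100 to 25600 CPM in WT and 15000 to 17400 in KO. The 11 epithelial markers summed to 9 to 32 CPM in WT and 128 to 148 in KO, with Krt5, Krt14 and Esrp1 at 0 in all 6 libraries. In edgeR 4 fibroblast markers fell (Col1a1, Col5a1, Pdgfrb and S100a4), and each of these calls was lost without WT 2, WT 3, KO 2 or KO 3 (adjusted p from 0.0658 to 0.171). The epithelial keratins Krt18 and Krt8 rose, and the Krt8 call was lost without WT 2 (adjusted p = 0.0611) or WT 3 (0.0622). Summed macrophage and leukocyte markers reached 5.23 CPM, endothelial markers 3.44 and skeletal muscle markers 2.97 CPM in any library, and neural and glial markers ranged from 135 to 249 CPM in WT and 212 to 474 in KO. The part of these differences in the results below was not tested.

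None of the 43 G2 and mitosis genes was called different between KO and WT by edgeR at an adjusted p of 0.05. Over all 15223 genes tested the share called was 7.40%. At an unadjusted p under 0.05 there were 6 of the 43, 1 with a higher and 5 with a lower mean in KO, against 22.2% of all genes. DESeq2 called 3, Cenpa higher and Cdc25b and Ttk lower, where it called 15.8% of all genes with an adjusted p, and limma-voom called 0, where it called 7.74% of all genes. For single directions the edgeR background was 3.55% higher and 3.86% lower. The count of members stayed at 0 with median-ratio, upper-quartile or no scaling factors (7.38%, 7.07% and 6.77% of all genes called), with no filter on low counts (4.25%), for genes averaging 5 CPM or more (7.65%) and in a test against a fold of 1.5 (2.60%). It was also 0 without WT 1, WT 2 or WT 3 (7.66%, 2.47% and 2.13%) and without KO 1, KO 2 or KO 3 (7.07%, 2.41% and 2.27%). The fitted log2 fold changes ran from -0.41 to 0.35 with a median of -0.05, and the median of all genes tested was 0.01. The median of the members was 0.01 with upper-quartile factors or library sizes alone, so its sign depended on the scaling. Of the 43, 18 were above 0 and 25 below.

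The members were expressed well enough for this comparison to be precise. Their mean levels ran from 14.2 CPM for Pttg1 to 656 CPM for Top2a, and the lowest count of any member in any library was 377, which gives a counting error of 5.2%. The spread between libraries was larger, with a median coefficient of variation of 7.8% in WT and 15.3% in KO. Per kilobase of annotated exon, which allows levels of different genes to be set side by side, Cdc20 was highest at 120 CPM per kb, followed by Ube2c at 82.0, Smc4 at 81.7 and Ccna2 at 78.9. Pttg1 at 7.13, Cdc25c at 7.98 and Cenpf at 8.83 CPM per kb were the lowest. These lengths join the exons of every annotated transcript, so genes with long minor transcripts come out low.

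Both markers of dividing cells were lowest in KO 1, as were most members. Top2a, the topoisomerase that untangles sister DNA, was at 705, 597 and 681 CPM in WT and 541, 736 and 677 in KO. Mki67, the Ki-67 proliferation marker that coats mitotic chromosomes, was at 527, 351 and 436 CPM in WT and 323, 543 and 429 in KO. In both genes KO 2 was the highest of the 6 libraries, and the groups overlapped. Mki67 had the widest interval of all members: its fitted ratio of KO to WT was 0.985, with a 95% interval from 0.674 to 1.44.

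**Figure D1:**
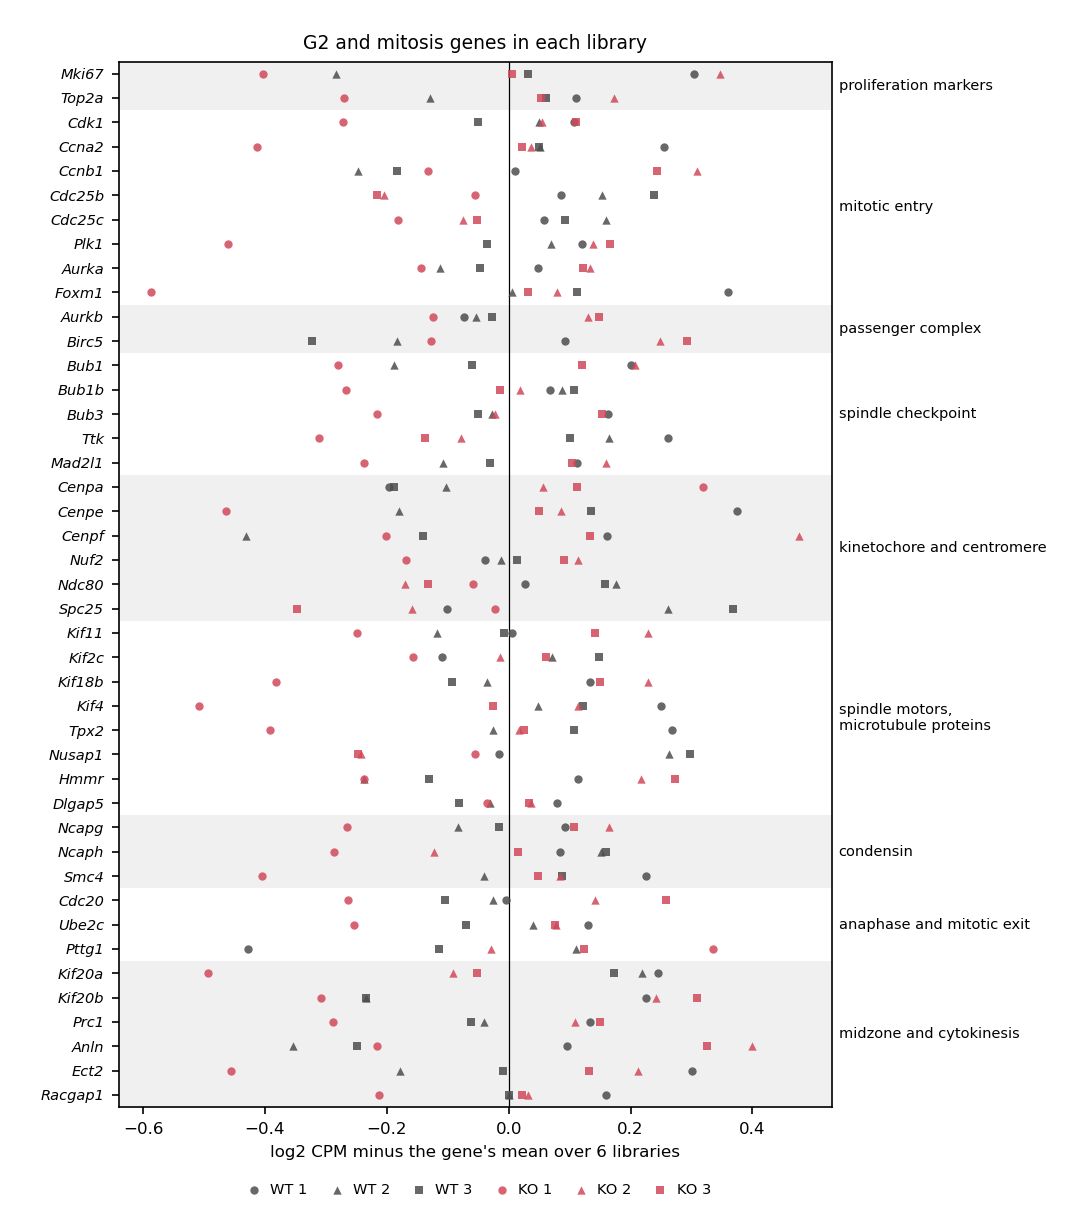
Each row is 1 of the 43 genes, grouped by role, and each point is 1 library, placed at its log2 CPM minus the gene's mean over the 6 libraries (grey WT, red KO; circle, triangle and square for libraries 1, 2 and 3). The red circle of KO 1 is the leftmost point in 32 rows, while KO 2 and KO 3 mostly lie among or to the right of the WT points.

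KO 1 stood apart from the other KO libraries, in these genes and over all genes. Over all genes, chi-square per degree of freedom was 149.25 and 128.71 for KO 1 with KO 2 and KO 3. Between KO 2 and KO 3 it was 13.92. WT 1 stood apart from its group over all genes too, at 139.16 with WT 2 and 125.07 with WT 3, against 13.41 between WT 2 and WT 3. KO 1 was the lowest of the 6 libraries for 32 of the 43 (74.4%), against 25.5% of all genes tested. The median over the members of its log2 level relative to KO 2 and KO 3 was -0.40, with a range from -0.64 for Foxm1 to 0.29 for Pttg1. WT 1 was in the opposite position, at a median of 0.15 relative to WT 2 and WT 3, and was the highest library for 13 members, where it was the highest for 18.3% of all genes tested. Each gene was also centred on its average over all 6 libraries, and the median over the 43 genes was 0.11 in WT 1, -0.03 in WT 2 and -0.01 in WT 3, against -0.25 in KO 1, 0.09 in KO 2 and 0.09 in KO 3. The groups overlapped, and differences between a KO and a WT library ran from -0.37 to 0.12. For 37 of the 43 genes the difference between group means on the log2 scale was smaller than the range within one of the groups. That count was made for the members only, so it cannot be set against the share over all genes.

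Promoters of mitotic genes often carry CCAAT boxes, bound by the factor NF-Y, and the cell cycle genes homology region (CHR), through which the DREAM and MuvB complexes hold genes off early in the cycle and turn them on in G2. RefSeq windows of the GRCm38.p6 build were matched by symbol for 35 of the 43 members, and the 200 bases before the first listed start were searched on both strands. No window was used for Ccna2, Cdc25c, Foxm1, Aurkb, Tpx2, Dlgap5, Smc4 and Kif20a. The motif CCAAT, which reads ATTGG on the other strand, was present in 25 of 35 members (71.4%) and in 30% of 27025 genes with a window, and 17 members (48.6%) had 2 or more against 8.41% of all. It was also common in 2 other lists described below, in 68% of 50 other mitotic genes and 54.1% of 37 S phase genes with a window. In those lists 30% and 29.7% had 2 or more. The core of the CHR, TTTGAA, which reads as TTCAAA on the other strand, was present in 10 members (28.6%) and 12.7% of all genes. Its share was higher in other mitotic genes, at 40%, and was 8.11% in S phase genes. Matches on opposite strands may overlap. All 10 members with that core were lowest in KO 1, with a median of -0.39 in KO 1 relative to KO 2 and KO 3. For 1 of them, Kif2c, the window (chr4:117178773-117178972, minus strand) lies inside the annotated gene (117159639 to 117182639). It is therefore not upstream of the gene's outermost start. Windows of Kif4 (chrX:100625865-100626064) and Pttg1 (chr11:43425982-43426181), which lack the core, also lie inside their genes. Those of Bub3, Cdk1, Cdc20, Ube2c and Cenpa, among others, reach past the outermost annotated start. Matches inside the gene include the CCAAT boxes of Cenpa and the CHR core of Ube2c and Bub3. Of the 25 members without the CHR core, 15 were lowest in KO 1, with a median of -0.37. Matches are letters in a window and show no binding.

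The windows of 3 members that were lowest in KO 1 and of Cenpa, which was highest there, are printed 5′ to 3′ on the gene's strand, with matches to both motifs in capitals. Cdk1 (chr10:69352913-69353112, minus strand), Cdc20 (chr4:118437344-118437543, minus strand) and Ube2c (chr2:164769729-164769928, plus strand) hold both motifs, and Cenpa (chr5:30666686-30666885, plus strand) holds CCAAT boxes but no TTTGAA.
Cdk1: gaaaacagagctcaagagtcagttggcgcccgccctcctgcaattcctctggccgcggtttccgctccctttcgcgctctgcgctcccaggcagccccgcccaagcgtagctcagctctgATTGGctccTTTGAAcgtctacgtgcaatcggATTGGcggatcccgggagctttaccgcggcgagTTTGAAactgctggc
Cdc20: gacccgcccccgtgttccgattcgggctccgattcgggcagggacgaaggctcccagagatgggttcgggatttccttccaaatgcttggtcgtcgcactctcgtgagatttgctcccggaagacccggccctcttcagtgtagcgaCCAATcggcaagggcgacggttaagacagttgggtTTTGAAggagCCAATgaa
Ube2c: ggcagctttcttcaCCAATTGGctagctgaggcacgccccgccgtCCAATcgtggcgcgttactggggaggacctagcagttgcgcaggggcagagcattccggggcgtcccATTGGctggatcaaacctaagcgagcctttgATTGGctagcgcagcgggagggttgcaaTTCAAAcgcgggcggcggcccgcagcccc
Cenpa: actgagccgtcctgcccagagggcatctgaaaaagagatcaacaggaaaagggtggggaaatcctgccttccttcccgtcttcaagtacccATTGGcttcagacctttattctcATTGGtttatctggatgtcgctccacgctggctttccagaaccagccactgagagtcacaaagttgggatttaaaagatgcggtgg

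Of the 8 genes of mitotic entry, edgeR called 0 (1 at an unadjusted p under 0.05, Cdc25b), and DESeq2 called Cdc25b lower. Cdk1, the kinase that starts mitosis, was at 266, 256 and 239 CPM in WT and 205, 257 and 267 in KO. Apart from KO 1, all of its libraries lay within 239 to 267 CPM. The fitted ratio was 0.957 with an interval from 0.770 to 1.19. Ccna2, the cyclin A2 partner of Cdk1 and Cdk2, was at 381, 331 and 330 CPM in WT and 240, 328 and 324 in KO. KO 2 and KO 3 of Ccna2 lay just below the WT libraries and KO 1 far below them, with a fitted ratio of 0.856 (0.664 to 1.10). Ccnb1, cyclin B1, went the other way at 223 ± 21.0 CPM in WT and 272 ± 42.7 in KO (log2 fold change 0.29, SE 0.15). Its processed pseudogenes are over 90% identical to it, and the one with most reads, Ccnb1-ps, held 1.48% of the Ccnb1 count.

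No kinase or phosphatase that switches Cdk1 on was called by edgeR, and their intervals lay within 2-fold. Cdc25b, a phosphatase that activates Cdk1 (chromosome 2, 131186949 to 131198497, plus strand, GENCODE M21), had 112, 117 and 124 CPM in WT and 101, 91.3 and 90.7 in KO. All KO libraries were below all WT libraries, and the log2 fold change was -0.32 (SE 0.10, unadjusted p = 0.0164, edgeR adjusted p = 0.119). Cdc25c, its relative, averaged 42.1 ± 1.51 CPM in WT and 36.5 ± 1.74 in KO, also without overlap (edgeR adjusted p = 0.302). Plk1, the Polo kinase, was at 167, 161 and 150 CPM in WT, against 111, 169 and 172 in KO, and only KO 1 left the WT range by a wide margin. Aurka, the centrosomal Aurora kinase, was at 114 ± 6.44 and 120 ± 12.6 CPM. Foxm1, the transcription factor that turns on many mitotic genes, had 221, 173 and 186 CPM in WT and 115, 182 and 176 in KO. Foxm1 had the lowest interval bound of all members, a ratio of 0.586.

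The chromosomal passenger complex corrects faulty attachments of chromosomes to the spindle. Its kinase Aurkb was at 90.6, 91.9 and 93.6 CPM in WT and 87.5, 104 and 106 in KO, a ratio of 1.08 (0.902 to 1.29). Birc5, which encodes survivin, was at 114, 93.9 and 85.3 CPM in WT and 97.6, 127 and 131 in KO. KO 2 and KO 3 were above every WT library in both genes and KO 1 was not, and the Birc5 ratio was 1.21 (0.927 to 1.58).

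Spindle checkpoint genes hold anaphase until all chromosomes are attached. Bub1b, which encodes the checkpoint protein BubR1, had 225, 228 and 231 CPM in WT and 178, 217 and 212 in KO, without overlap of the groups (ratio 0.889, 0.737 to 1.07). The checkpoint kinase Bub1 was at 145, 111 and 121 CPM in WT and 104, 145 and 137 in KO. Bub3 and Mad2l1, which act beside them, had ratios of 0.965 and 1.02. Ttk, the kinase that recruits the others (chromosome 9, 83834689 to 83872389, plus strand), had 62.9, 58.9 and 56.3 CPM in WT and 42.3, 49.7 and 47.8 in KO. Every KO library was below every WT library for Ttk, with a log2 fold change of -0.35 (SE 0.11, unadjusted p = 0.0164, edgeR adjusted p = 0.119).

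Among centromere and kinetochore genes, Cenpa was the only member of the 43 with all KO libraries above all WT libraries, where 14.6% of all genes tested had this order. Cenpa encodes the histone H3 variant that marks centromeres (chromosome 5, 30666777 to 30674830, plus strand). It had 122, 130 and 123 CPM in WT and 174, 145 and 151 in KO, with a log2 fold change of 0.33 (SE 0.11, unadjusted p = 0.0206, edgeR adjusted p = 0.135). KO 1 was the highest library for Cenpa and the lowest for Cenpe, a kinetochore motor that was at 246, 167 and 208 CPM in WT and 137, 201 and 196 in KO. Cenpf, another outer kinetochore protein, was at 149, 99.0 and 121 CPM in WT and 116, 186 and 146 in KO. Its interval ran from 0.847 to 1.74. Ndc80, Nuf2 and Spc25 are subunits of one complex that binds spindle microtubules. Ndc80 and Spc25 had lower means in KO, and the means of Nuf2 were close. Ndc80 had 86.3, 95.7 and 94.4 CPM in WT and 81.3, 75.3 and 77.2 in KO without overlap (log2 fold change -0.24, SE 0.10, unadjusted p = 0.0403, edgeR adjusted p = 0.201). A pseudogene over 90% identical to part of Ndc80, 2700099C18Rik, held 6.68% of the Ndc80 count. Nuf2 was at 79.9 ± 1.45 and 81.5 ± 8.54 CPM (ratio 1.02, 0.853 to 1.22). Spc25 was at 63.2 ± 10.3 and 49.2 ± 5.50 CPM with overlapping groups (log2 fold change -0.36, SE 0.16).

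Of 8 spindle motors and microtubule proteins, edgeR called 0 (1 at an unadjusted p under 0.05, Nusap1), and 5 had an interval within 1.5-fold. Kif11, the motor that pushes spindle poles apart, had 198, 181 and 196 CPM in WT and 166, 231 and 217 in KO. Tpx2, which activates Aurka on the spindle, had 390, 318 and 349 CPM in WT and 247, 328 and 330 in KO. Both groups overlapped, with ratios of 1.07 for Kif11 and 0.855 for Tpx2. Nusap1, which bundles microtubules near chromosomes (chromosome 2, 119618298 to 119651244, plus strand), had 118, 144 and 147 CPM in WT and 115, 101 and 101 in KO. Without overlap between groups, its log2 fold change was -0.37 (SE 0.13, unadjusted p = 0.0221, edgeR adjusted p = 0.141). Dlgap5, a spindle assembly factor, had the narrowest interval of all members, from 120, 111 and 107 CPM in WT and 111, 117 and 116 in KO. The ratio was 1.02, with bounds of 0.867 and 1.19. Kif4, a chromosome-bound motor and the only X-linked member, averaged 138 ± 9.82 CPM in WT and 116 ± 24.6 in KO, with overlapping groups.

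Condensin compacts mitotic chromosomes. Its ATPase subunit Smc4 had 493, 410 and 448 CPM in WT and 319, 447 and 436 in KO, and its subunit Ncapg had 132, 117 and 123 CPM in WT and 103, 139 and 134 in KO. Only KO 1 was outside the WT range for Smc4. Ncaph averaged 129 ± 3.71 CPM in WT and 108 ± 11.2 in KO without overlap (edgeR adjusted p = 0.232). All 3 intervals lay within 1.5-fold.

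At anaphase the APC/C ubiquitin ligase destroys securin and cyclin B. Its activator Cdc20 had 221, 218 and 206 CPM in WT and 185, 245 and 265 in KO, with a ratio of 1.08 (0.839 to 1.38). Its ubiquitin-conjugating enzyme Ube2c had 232, 218 and 202 CPM in WT and 178, 224 and 224 in KO, with a ratio of 0.959 (0.773 to 1.19). KO 1 was the lowest library for both genes. Securin itself, Pttg1, was low at 12.9 ± 2.36 CPM in WT and 15.6 ± 1.99 in KO.

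Among genes of the spindle midzone and cytokinesis, Kif20a had the most negative fold change of the 43. This kinesin carries the passenger complex to the midzone and had 348, 342 and 331 CPM in WT and 208, 276 and 283 in KO. The groups did not overlap, with a log2 fold change of -0.41 (SE 0.14, unadjusted p = 0.0234, edgeR adjusted p = 0.146). Its exons share 1271 bases with Cdc23 on the opposite strand. Since the counting is not stated to use strand, reads of the pair may not be separated, and Cdc23 averaged 143 ± 4.41 CPM in WT and 125 ± 8.86 in KO. Overlaps of 300 or more exonic bases with a gene of at least 1000 counts also make Ccna2, Ncapg, Prc1 and Kif4 uncertain. Racgap1, a subunit of centralspindlin, had 318, 285 and 285 CPM in WT and 246, 291 and 289 in KO (ratio 0.931). Ect2, the exchange factor that centralspindlin recruits, had 226, 162 and 182 CPM in WT and 134, 212 and 201 in KO (ratio 0.960, 0.678 to 1.36). Anln, which encodes the furrow scaffold anillin, had the most positive fold change of the 43, at 223 ± 37.4 CPM in WT and 284 ± 61.5 in KO. Its interval reached 1.78, the highest bound of all members, and its groups overlapped.

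In all, 10 of the 43 members (23.3%) had groups that did not overlap, 9 with KO below WT and Cenpa with KO above, against 30.0% of all genes tested. The share for KO below WT among all genes was 15.4%.

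The intervals state which sizes of shift these libraries leave out. All 43 intervals (95%, per gene and not adjusted for their number) lay between ratios of 0.586 and 1.78, so a 2-fold change in either direction was outside every one. Among all genes tested 56.9% had an interval within 2-fold, and 82.7% of genes in the members' range of mean CPM. A 1.5-fold change in either direction was outside the intervals of 27 members (62.8%), against 28.5% of all genes and 46.4% of genes in that range of CPM. Smaller shifts were not resolved: the median SE of a member's log2 fold change was 0.147. It was 0.154 for genes in that range of CPM, so the members were about as precise as those, and 0.221 over all genes. When any 1 library was left out, all 43 intervals still lay within 2-fold, with outer bounds of 0.517 and 1.97.

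**Figure D2:**
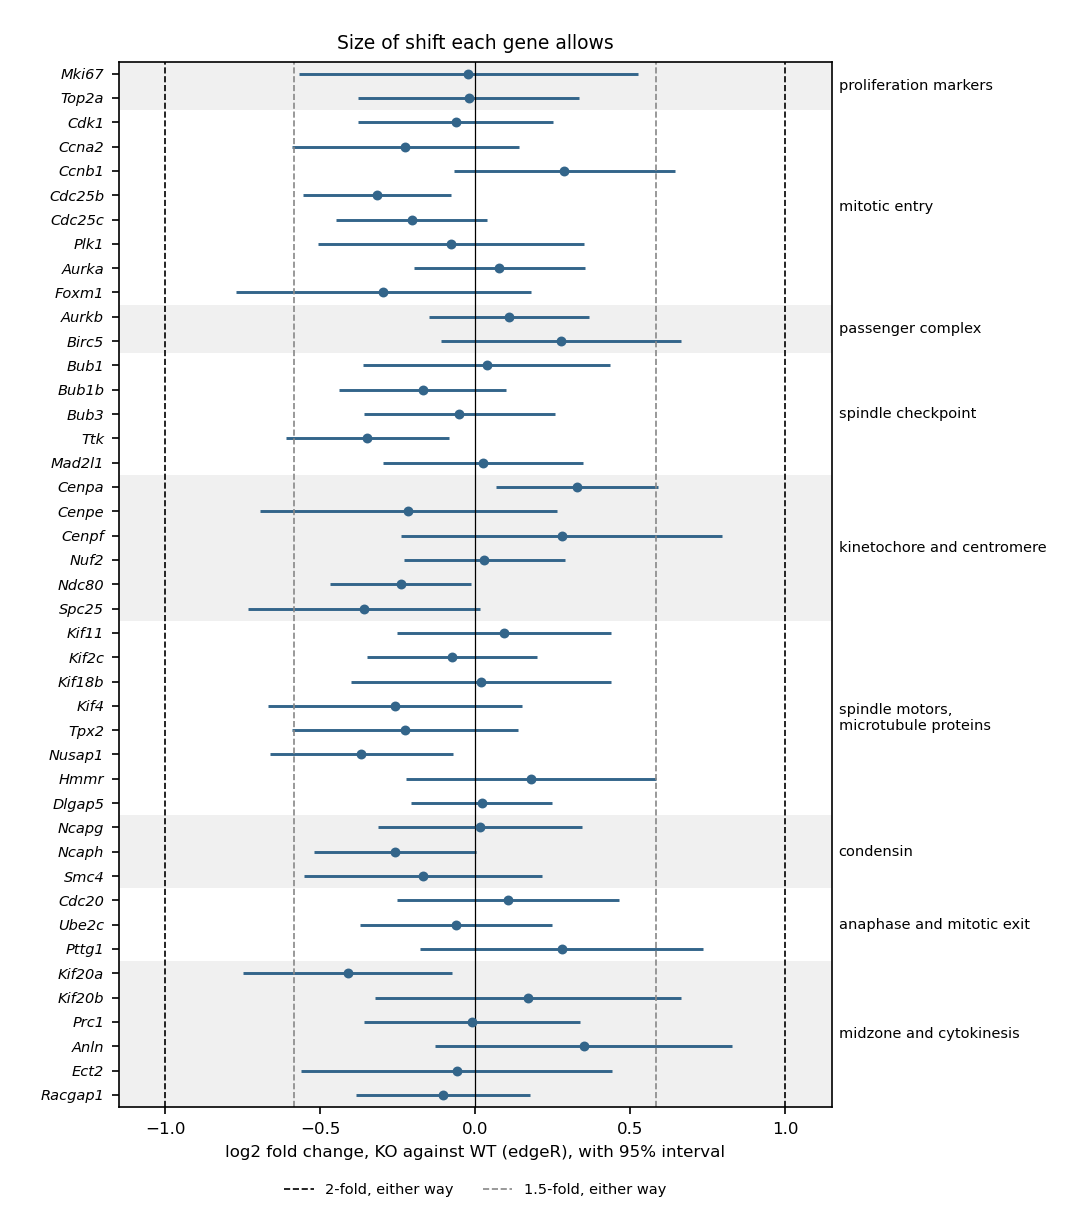
Each row is 1 gene, with the edgeR log2 fold change of KO against WT (point) and its 95% interval (line), from 3 libraries per group. All 43 lines end inside the dashed black lines at 2-fold, and 27 end inside the dashed grey lines at 1.5-fold.

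The count of called members depended on the libraries numbered 1. Without KO 1 alone, 0 members were called, where 7.07% of all genes were called, and the median log2 fold change of the members was 0.09. At an unadjusted p under 0.05 there were 12 members, a count made for the members only. Without WT 1 and KO 1, 24 of the 43 (55.8%) were called, 17 higher and 7 lower in KO, where 48.0% of all genes were called. In that setting the comparison is of 2 libraries against 2. Deviations from a group mean cancel out within each group, so the correlations given next are tied to that of -0.51 for WT 1 with KO 1. They are not separate evidence. Deviations of WT 1 from its group mean correlated at 0.36 and 0.32 with those of KO 2 and KO 3. Those of KO 1 correlated at 0.39 and 0.3 with those of WT 2 and WT 3. Whatever varies in this way runs along genotype in the libraries left, so it cannot be told apart from genotype there. Anln rose by 0.66 on the log2 scale (interval 0.53 to 0.79), Cenpf by 0.59, Birc5 by 0.52, Kif20b by 0.51, Ccnb1 by 0.49 and Hmmr by 0.43. Kif20b is a cytokinesis kinesin and Hmmr a spindle protein. Spc25 fell by 0.57 (interval -0.76 to -0.38), Nusap1 by 0.53, Cdc25b by 0.41, Ndc80 by 0.32, Kif20a by 0.27, Ttk by 0.24 and Ncaph by 0.21. Of the 43 fitted values, 11 changed sign, and 42 of the 43 intervals still lay within 2-fold, the exception being Cenpf with an upper bound of 2.06.

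**Figure D3:**
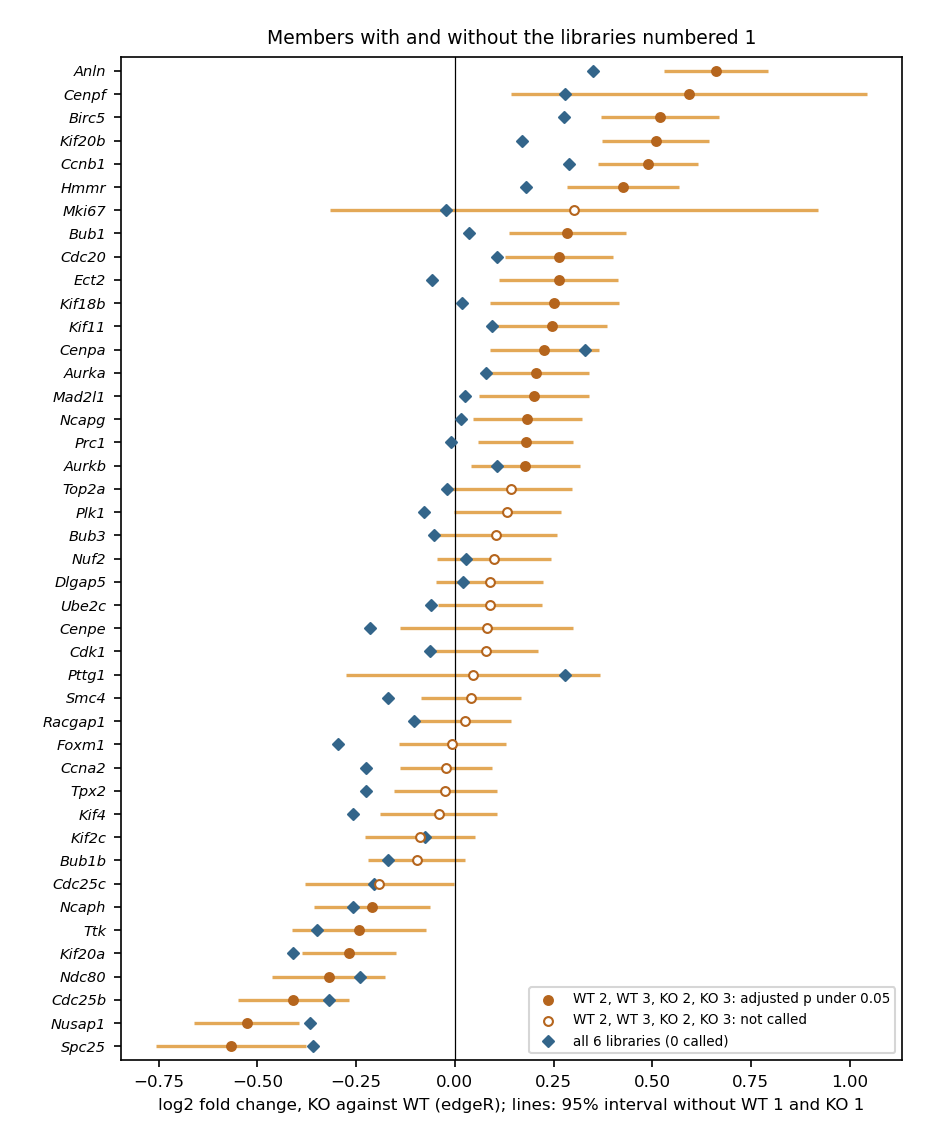
Each row is 1 gene, ordered by its log2 fold change without WT 1 and KO 1 (circles, with 95% intervals; filled where the edgeR adjusted p is under 0.05), beside the value from all 6 libraries (blue diamonds). Without those libraries 17 genes were called higher and 7 lower, and most circles lie to the right of their diamond.

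Other genes of the cell cycle varied over the libraries in a similar range. Of 60 further mitotic genes, 1 rose and 3 fell in edgeR, 4 in all, near the background of 7.40%. Zwilch, a kinetochore protein of the checkpoint, fell 1.73-fold from 82.0, 81.3 and 79.8 CPM to 43.5, 47.5 and 49.7 CPM (edgeR adjusted p = 0.00613). Kif23, the motor of centralspindlin, fell 1.92-fold from 280, 233 and 238 CPM to 103, 143 and 145 CPM (edgeR adjusted p = 0.0222). Both lie on chromosome 9 between 55 and 75 Mb, a stretch known from earlier results of these data, where 71 of 177 genes tested fell and 3 rose, with a median log2 fold change of -0.75. None of the 43 members lies there. Hjurp, the chaperone that deposits Cenpa at centromeres, lies on chromosome 1 and fell 1.53-fold from 257, 258 and 280 CPM to 166, 183 and 173 CPM (edgeR adjusted p = 0.0169). Spc24, the partner of Spc25, rose 1.53-fold from 35.4, 30.3 and 27.1 CPM to 46.2, 47.9 and 48.1 CPM (edgeR adjusted p = 0.0364), while Spc25 was not called and had the lower mean in KO. Without WT 2, WT 3, KO 2 or KO 3, 1 of these 60 genes was called, and the Spc24 call was also lost without KO 1 (adjusted p = 0.0534). DESeq2 called 6 of the 60 and limma-voom 4. WT 1 to 3 had medians of 0.10, -0.06 and 0.02 for this list and KO 1 to 3 had -0.24, 0.10 and 0.10, with KO 1 again the lowest.

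**Figure D4:**
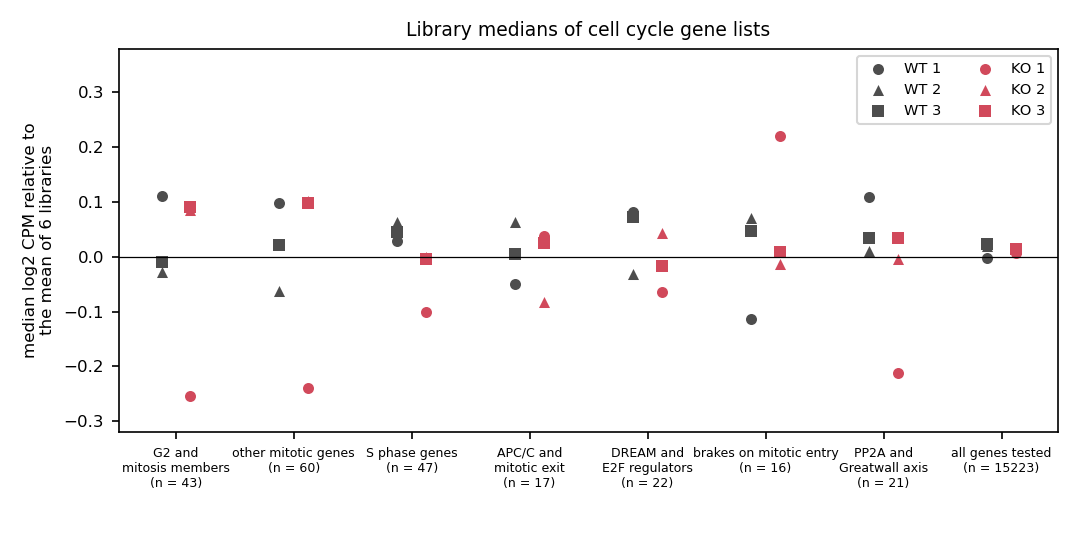
For each gene list, points give the median over its genes of log2 CPM after centring each gene on its 6 libraries (grey WT, red KO; circle, triangle and square for libraries 1, 2 and 3). KO 1 is at -0.25 for the G2 and mitosis members, -0.24 for other mitotic genes and -0.10 for S phase genes. It is at -0.21 for the PP2A and Greatwall axis and -0.06 for DREAM and E2F regulators. For the APC/C list it is at 0.04 and for brakes on mitotic entry at 0.22. Over all genes tested every library lies between -0.002 and 0.023, since scaling brings library medians together.

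Genes of the preceding phase and of the machinery around mitosis were also mostly not called. Of 47 S phase genes, 0 were called by edgeR (8 at an unadjusted p under 0.05), 4 by DESeq2 and 0 by limma-voom. Centred in the same way, WT 1 to 3 had medians of 0.03, 0.06 and 0.05 for this list and KO 1 to 3 had -0.10, 0.00 and -0.01, so KO libraries were below WT libraries by 0.03 to 0.16 on the log2 scale in every pair. Of 17 subunits and partners of the APC/C, 0 were called by edgeR (1 at an unadjusted p under 0.05), 1 by DESeq2 and 0 by limma-voom. Of 22 DREAM and E2F regulators, which control when these genes are transcribed, 0 were called by edgeR (3 at an unadjusted p under 0.05), 1 by DESeq2 and 0 by limma-voom. Of 16 brakes on mitotic entry, the CDK inhibitor Cdkn1c rose 2.48-fold from 4.77, 7.42 and 8.61 CPM to 23.1, 14.7 and 13.8 CPM (edgeR adjusted p = 0.0495). KO 1 was the highest library for Cdkn1c, and the call was lost without any 1 of the 6 libraries, with adjusted p from 0.0775 to 0.155. DESeq2 called 3 of these brakes, Cdkn1c, Wee1 and Sfn, and limma-voom called 1.

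Of 21 tested genes of PP2A and the Greatwall axis, 2 fell in edgeR, Ppme1 and Arpp19. DESeq2 called 4 of them, 1 higher and 3 lower, with Ppp2r5c and Bod1 in addition, and limma-voom called 2. Arpp19, the PP2A-B55 inhibitor, fell 1.70-fold from 257, 226 and 229 CPM to 131, 146 and 141 CPM (edgeR adjusted p = 0.00938). Its groups did not overlap. It starts at 75037614 on chromosome 9, just past the stretch described above, and its call was lost without WT 3 (adjusted p = 0.0526) or KO 3 (0.0564).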

How the data were processed

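The authors deposited 1 table of raw counts for each library, listed by gene symbol. Per the submitters' processing notes, reads were handled with Trim Galore 0.6.6 and HISAT2 2.2.1. Those notes list a human build, while the gene symbols are those of mouse. For the counting program, annotation and strand setting, the answer is not given in the sources used here. Titles gave the groups, since KO 2 and KO 3 carry other PME numbers in their genotype labels.

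Counts were fitted with edgeR 4.0.16 in R 4.3.3 (filterByExpr, TMM factors, robust quasi-likelihood test) over 15223 genes, with Benjamini-Hochberg adjustment and a threshold of 0.05. The SE is the log2 fold change divided by the square root of F, and 95% intervals use the t distribution. Log2 levels of libraries use a prior count of 2. DESeq2 1.42.0 and limma-voom (limma 3.58.1) were alternatives, and the fits were tested on simulated counts. Total counts of 34450993 to 44116310 per library make 3 counts equal to 0.068 to 0.0871 CPM. Chi-square per degree of freedom between replicates was 13.41 for WT 2 with WT 3 and 13.92 for KO 2 with KO 3. It was 139.16 and 125.07 for WT 1 with WT 2 and WT 3. For KO 1 with KO 2 and KO 3 it was 149.25 and 128.71. Each library therefore counted as 1 sample. Positions and exon lengths come from GENCODE M21 (GRCm38), near-identical transcripts from blastn 2.17.0 (at least 90% identity over 300 bases), and promoter windows from RefSeq.

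The members, the 12 other gene lists and the alternatives were chosen with earlier results of these data known. Values in every library are given for Ppme1, the 5 members with the smallest unadjusted p, the 3 with the widest and the 3 with the narrowest interval, the 2 with the highest mean CPM of each role, and genes of the other cell cycle lists that passed with a mean of at least 1 CPM. From the marker lists, for which summed levels are given, Col1a1, Col5a1, Pdgfrb, S100a4 and Map2 passed as lower in KO, and Krt18, Krt8 and Sox2 as higher. Any other gene named was chosen after its values were seen.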

Additional observations from a re-analysis of the deposited data

How the results depend on the processing

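No member was called under the other scalings and filters, in limma-voom, in a test against a fold of 1.5, or without any 1 library (0 to 0). DESeq2 called 3, and leaving out both libraries numbered 1 gave 24. The same setting moved the median log2 fold change of the members from -0.05 to 0.10, while leaving out 1 library gave -0.11 to 0.09. It made Prc1 0.18 and Ect2 0.26 on the log2 scale, called with the sign opposite to that from all 6 libraries. It also gave 7408 genes called in all, 35 other mitotic genes and 24 S phase genes. The cause was not tested. Over all genes DESeq2 called 2406, a test against a fold of 1.5 called 396, and leaving out 1 library 332 to 1216. Other mitotic genes went from 4 to 0 in the test against a fold of 1.5 and to 1 to 4 without 1 library. S phase genes went from 0 to 4 with DESeq2 and to 0 to 1 without 1 library. The call of the neural marker Map2 was lost without WT 2, WT 3, KO 2 or KO 3 (adjusted p from 0.0994 to 0.111). Members with an interval within 1.5-fold numbered 20 to 32 without 1 library, and 43 stayed within 2-fold in each.

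With the replicate number as a block, 8 genes were called in all, 0 other mitotic genes and 0 members, 16 members had an interval within 1.5-fold, and 41 one within 2-fold (not Cenpf and Anln). Ppme1 kept its log2 fold change of -2.24 there, with an edgeR adjusted p of 0.0518. The numbers do not pair samples that vary together. Deviations from the group means correlated at -0.51, -0.31 and -0.22 between libraries with the same number. Because deviations cancel out within a group, the values across numbers are tied to these and are not separate evidence. Across numbers, WT 1 correlated with KO 2 and KO 3 at 0.36 and 0.32. KO 1 correlated with WT 2 and WT 3 at 0.39 and 0.3. The value was -0.21 for WT 2 with KO 3 and -0.18 for WT 3 with KO 2. No scaling moved the median of all genes by over 0.1. Counting error was at most 5.2% for a member, below the median spread between libraries of 7.8% in WT and 15.3% in KO.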
